A study of Homo sapiens with 18 samples.

Results

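The interferon response genes are 46 genes chosen by symbol as targets of interferon signalling, out of 16532 named rows in the H929 expression table, 58884 in each of the MM1S expression tables and 20308 in the table of immunoprecipitated RNA. All 46 were found in every table, with DDX58 standing for the gene now called RIGI. The study knocked down the RNA-binding splicing factor RBM39, or treated cells with indisulam, a sulfonamide drug that leads to RBM39 degradation through the ligase receptor DCAF15, in H929 and MM1S, which are established human multiple myeloma cell lines. The groups were 3 H929 libraries labelled shRBM39 against 3 labelled scramble, 2 MM1S shRBM39 libraries against 2 MM1S scramble libraries, and 3 MM1S libraries with indisulam against 3 with DMSO. RNA immunoprecipitation (RIP) from MM1S gave 1 library from an RBM39 antibody and 1 from control IgG. The labels give no dose, no time and no promoter for the hairpins, and do not say whether the MM1S knockdown numbers are hairpins or replicates. Nothing states that replicates were separate cultures, so a p-value here reflects no more than the spread of these libraries, which may be technical.

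Interferons bind receptors on the cell surface and activate the kinases JAK1 and TYK2. These phosphorylate STAT2, which joins IRF9 in a factor called ISGF3 that binds interferon-stimulated response elements in target promoters. Cells also carry RNA sensors, among them MDA5 (from IFIH1) and RIG-I (from DDX58), that start interferon production, and most sensors and effectors of the response are themselves interferon targets. Interferon alpha was long used as a treatment of multiple myeloma.

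The labelled cell type and the targeted gene were checked first. All 8 plasma cell markers were listed in each expression table. They were at 1 or more in every library, except that 7 of the 8 reached that level in all indisulam libraries, where CD38 fell short in replicate 3. RBM39 was at 64.8 and 52.2 TPM in the MM1S shRBM39 libraries, against 176 and 205 TPM in the scramble libraries. In H929 it was higher in the libraries labelled shRBM39, at 38.3, 38.6 and 35.6 FPKM, against 4.56, 4.43 and 4.51 FPKM in those labelled scramble, which goes against the labels. The H929 groups are therefore given as labelled, with no statement on which had less RBM39. Indisulam replicate 3 stood apart from replicates 1 and 2: its median log2 difference from the DMSO mean over all 13445 genes tested was -0.33, against 0.09 and 0.07 in the other two, so the calls of members with indisulam are given with and without it. RBM39 itself was at 226.5, 217 and 149 TPM with indisulam, against 189, 178 and 196 TPM with DMSO, with overlapping groups and no call (limma adjusted p = 0.828). The values are FPKM in H929 and the RIP and TPM in MM1S, both per length of transcript, and each table was normalized on its own. The tables give no read counts and depth was not recovered here, so no counting interval is given.

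The promoters of 7 members are shown because these genes moved in one direction in more than 1 comparison or, for DTX3L, share a promoter region with PARP9, which fell in MM1S. IFIH1, DDX58, HERC5, SP100, TRIM25 and UBE2L6 passed the test in the same direction in 2 of the 3 comparisons, as did LY6E, which had no promoter entry. For IFIH1, SP100, TRIM25, UBE2L6 and LY6E this takes the H929 groups as labelled. With the H929 labels turned, OAS1, IRF7, MX1, MX2, IFI6, IFI35, ISG20 and BST2 would share a direction in their place, and the directions shared by DDX58 and HERC5 lie within MM1S. DTX3L was added after its values were seen. Each window runs from 250 bases before to 50 bases after the start site in RefSeq on GRCh38.p14 and is written 5′ to 3′ on the strand of the gene. SP100 and UBE2L6 have a second window that is not shown. Capitals mark the core letters of the interferon-stimulated response element, which are GAAA, any 2 bases and GAAA, or its reverse complement, which is TTTC, any 2 bases and TTTC. Both strands were searched and copies may overlap.
IFIH1, chr2:162318635-162318934, minus strand: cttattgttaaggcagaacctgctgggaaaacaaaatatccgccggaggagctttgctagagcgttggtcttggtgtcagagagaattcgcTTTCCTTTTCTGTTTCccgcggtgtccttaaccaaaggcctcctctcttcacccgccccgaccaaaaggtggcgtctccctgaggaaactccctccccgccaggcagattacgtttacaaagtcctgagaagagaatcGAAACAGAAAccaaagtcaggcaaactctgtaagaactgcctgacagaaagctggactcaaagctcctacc
DDX58 (RIGI), chr9:32526147-32526446, minus strand: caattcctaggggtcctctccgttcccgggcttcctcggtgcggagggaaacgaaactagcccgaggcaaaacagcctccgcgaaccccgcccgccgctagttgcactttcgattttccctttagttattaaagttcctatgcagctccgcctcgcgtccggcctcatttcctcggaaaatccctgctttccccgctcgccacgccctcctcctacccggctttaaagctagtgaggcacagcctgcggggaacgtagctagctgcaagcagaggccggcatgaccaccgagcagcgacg
HERC5, chr4:88456869-88457168, plus strand: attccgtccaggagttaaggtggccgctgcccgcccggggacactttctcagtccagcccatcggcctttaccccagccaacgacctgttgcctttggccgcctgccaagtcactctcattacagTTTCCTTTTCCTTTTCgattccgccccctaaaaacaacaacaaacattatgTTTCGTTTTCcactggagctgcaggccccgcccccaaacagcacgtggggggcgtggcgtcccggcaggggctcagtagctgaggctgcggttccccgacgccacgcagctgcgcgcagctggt
SP100, chr2:230415951-230416250, plus strand: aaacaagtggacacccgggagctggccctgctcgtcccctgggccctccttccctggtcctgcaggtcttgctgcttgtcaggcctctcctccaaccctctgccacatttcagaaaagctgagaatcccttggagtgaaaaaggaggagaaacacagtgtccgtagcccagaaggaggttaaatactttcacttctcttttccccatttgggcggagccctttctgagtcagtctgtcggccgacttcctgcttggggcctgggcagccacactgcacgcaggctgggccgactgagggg
TRIM25, chr17:56914000-56914299, minus strand: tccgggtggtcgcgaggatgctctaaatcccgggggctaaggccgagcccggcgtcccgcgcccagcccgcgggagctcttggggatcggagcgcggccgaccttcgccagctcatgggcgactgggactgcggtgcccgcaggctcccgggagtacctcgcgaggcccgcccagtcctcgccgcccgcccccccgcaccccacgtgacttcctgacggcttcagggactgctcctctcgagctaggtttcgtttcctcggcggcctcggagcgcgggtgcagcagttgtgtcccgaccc
UBE2L6, chr11:57567886-57568185, minus strand: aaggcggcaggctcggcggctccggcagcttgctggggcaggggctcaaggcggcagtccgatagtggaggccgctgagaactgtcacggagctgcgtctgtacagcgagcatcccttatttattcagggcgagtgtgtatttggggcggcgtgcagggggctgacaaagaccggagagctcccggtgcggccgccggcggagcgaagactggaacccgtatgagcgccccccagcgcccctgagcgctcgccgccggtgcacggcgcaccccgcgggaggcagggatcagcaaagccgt
DTX3L, chr3:122564088-122564387, plus strand: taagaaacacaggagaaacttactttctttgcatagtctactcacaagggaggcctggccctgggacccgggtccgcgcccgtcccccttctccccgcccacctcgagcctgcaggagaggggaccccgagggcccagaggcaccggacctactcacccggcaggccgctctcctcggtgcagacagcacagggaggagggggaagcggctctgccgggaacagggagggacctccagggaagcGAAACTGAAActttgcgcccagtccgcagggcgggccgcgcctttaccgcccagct

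The motif stood 3 times in the IFIH1 window, 3 times in the HERC5 window and once in the DTX3L window. It was not present in the printed windows of DDX58, SP100, TRIM25 and UBE2L6. The windows of DTX3L and PARP9 overlap by 137 bases, their start sites lie 38 bases apart, and the same copy of the motif lies in both. Over all members, 37 had a promoter entry, and 23 of the 37 held the motif in at least 1 window, or 27 of 52 windows. Among all 35116 windows of this length the share was 3.57%, and among 27305 genes it was 4.38%. IRF7, MX2, OAS2, OASL, IFIT2, USP18, PML, TRIM22 and LY6E had no entry. By call, the motif was held by 1 of 2 members with an entry that rose in the MM1S knockdown, 2 of 3 that fell and 15 of 26 not called. With indisulam it was held by 0 of 4 that rose, 6 of 7 that fell and 8 of 15 not called, and in H929 by 14 of 22 higher, 1 of 5 lower and 6 of 7 not called. A match describes letters in a window and says nothing of a bound factor.

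Knockdown of RBM39 in MM1S went with a fall of PARP9, HERC5 and OAS1 and a rise of the RNA sensor genes DDX58 and IFIH1. PARP9 and HERC5 had the largest differences of the members tested: PARP9 was 8.95-fold lower and HERC5 8.37-fold lower in the shRBM39 libraries by the ratio of means, while the other 3 called members differed by 1.7-fold to 2.99-fold up or 2.06-fold down. A gene was tested where its value reached 1 TPM in at least 2 libraries and called at an adjusted p below 0.05 in limma on log2(TPM + 1), adjusted over all genes of the table. Of 38 members tested, 2 rose and 3 fell, where 3.97% of all 14152 genes tested rose and 6.35% fell. The share of members called was thus near that of all genes. Their median log2 difference was -0.22, against -0.00075 over all genes.

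PARP9, which encodes an ADP-ribosyltransferase-like partner of the DTX3L ubiquitin ligase, was at 1.63 and 1.73 TPM in the shRBM39 libraries, against 14.9 and 15.1 TPM in the scramble libraries. HERC5, which encodes the ligase that attaches ISG15 to target proteins, was at 2.87 and 3.52 TPM in the shRBM39 libraries, against 31.6 and 21.9 TPM in the scramble libraries. For both genes every shRBM39 library lay far below every scramble library. The log2 difference was -2.58 for PARP9 (SE 0.176, limma adjusted p = 0.0116) and -2.71 for HERC5 (SE 0.229, limma adjusted p = 0.0116). OAS1, an oligoadenylate synthetase that activates the endonuclease RNase L on double-stranded RNA, was at 8.92 and 8.21 TPM in the shRBM39 libraries, against 18.2 and 17.0 TPM in the scramble libraries. Its log2 difference was -0.96 (SE 0.152, limma adjusted p = 0.0268), and the groups did not overlap. The fold on the log2(TPM + 1) scale understates the change of low genes.

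The 2 members that rose were sensors of viral RNA. DDX58, the gene of RIG-I, was at 5.21 and 4.29 TPM in the shRBM39 libraries, against 1.59 and 1.59 TPM in the scramble libraries. Both shRBM39 values were well above the scramble values, by 1.15 on the log2 scale (SE 0.214, limma adjusted p = 0.0374). IFIH1, the gene of MDA5, was at 38.7 and 47.4 TPM in the shRBM39 libraries, against 26.4 and 24.1 TPM in the scramble libraries, by log2 0.74 (SE 0.155, limma adjusted p = 0.047), again with no overlap. Other genes grouped with the sensors did not rise. EIF2AK2, the gene of the kinase PKR, was at 13.8 and 12.6 TPM in the shRBM39 libraries, against 16.9 and 17.3 TPM in the scramble libraries (log2 difference -0.35, limma adjusted p = 0.163). The sensor gene DHX58, not a member, overlapped between groups (limma adjusted p = 0.582). Without shRBM39 replicate 1 the rise of DDX58 lost its call, with IFIH1 higher and OAS3 joining PARP9, HERC5 and OAS1 as lower. Without shRBM39 replicate 2 the rise of IFIH1 lost its call, with DDX58 and IRF1 higher and STAT2 joining the same 3 as lower. Without scramble replicate 1, or without scramble replicate 2, 0 of the 38 members passed limma's test after adjustment, while 2 higher and 6 lower members were at an unadjusted p below 0.05 in each case. Each of these fits has 1 library in a group and assumes that it varies like the other group. Calls over all genes were not counted in these fits. The log2 differences without scramble replicate 1 and without scramble replicate 2 were -2.59 and -2.57 for PARP9, -2.45 and -2.96 for HERC5, -0.91 and -1.01 for OAS1, 1.15 and 1.15 for DDX58, and 0.80 and 0.68 for IFIH1.

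**Figure D1:**
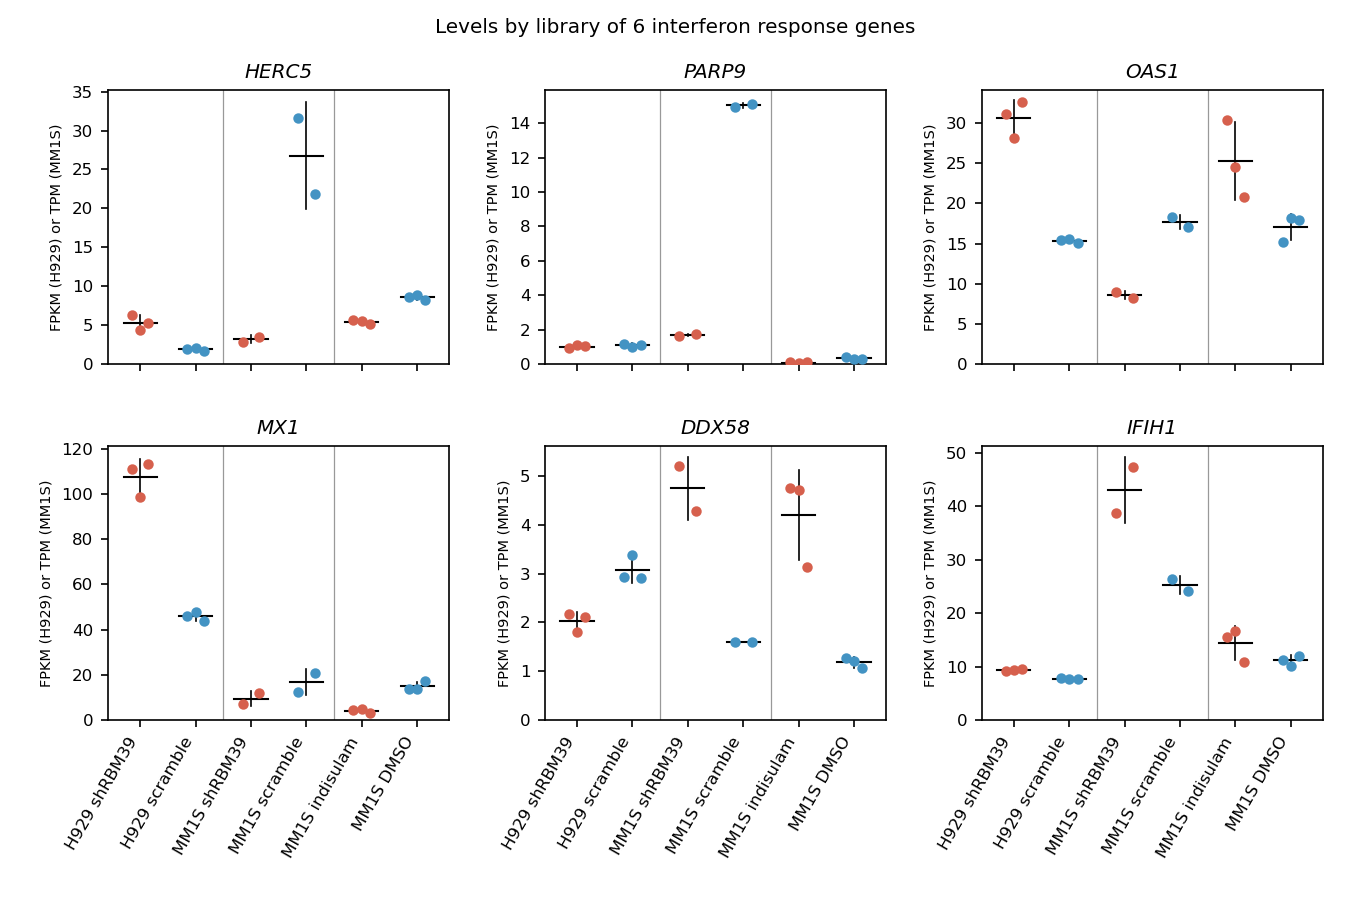
Levels of HERC5, PARP9, OAS1, MX1, DDX58 and IFIH1 in each library, with points for libraries, horizontal bars for means and vertical bars for the SD; units are FPKM in H929 and TPM in MM1S, each pair of groups comes from its own table, and pairs are split by grey lines. In MM1S, both shRBM39 libraries lie at 1.63 and 1.73 TPM for PARP9, against 14.9 and 15.1 TPM with scramble.

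The remaining members did not pass the test in the MM1S knockdown. Of the 38 tested, 19 lay lower in both shRBM39 libraries than in both scramble libraries, 7 lay higher and 12 overlapped. Groups without overlap were common in this table, at 62.4% of all genes tested, in either direction. OAS3, at 2.73 and 1.77 TPM in the shRBM39 libraries, against 5.15 and 5.35 TPM in the scramble libraries, had a log2 difference of -0.96 but did not pass limma's test (adjusted p = 0.0617). The interferon-induced GTPase gene MX1 was at 7.13 and 11.9 TPM in the shRBM39 libraries, against 12.5 and 20.7 TPM in the scramble libraries, a log2 difference of -0.74 (limma adjusted p = 0.187). MX2, a GTPase gene whose product blocks retroviral capsids, was at 0.89 and 0.73 TPM in the shRBM39 libraries, against 1.84 and 3.13 TPM in the scramble libraries (log2 difference -0.92, limma adjusted p = 0.0953). In both MX genes the knockdown libraries were the lower ones, and the scramble libraries differed much between themselves.

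Members called in more than 1 comparison but not here are given next. IRF7, the factor that amplifies interferon production, was at 10.2 and 8.1 TPM in the shRBM39 libraries, against 12.8 and 13.1 TPM in the scramble libraries. IFI35 was at 19.3 and 20.6 TPM in the shRBM39 libraries, against 23.4 and 25.1 TPM in the scramble libraries, where the groups did not overlap either. UBE2L6, which encodes the conjugating enzyme for ISG15, was at 74.5 and 66.9 TPM in the shRBM39 libraries, against 101 and 86.2 TPM in the scramble libraries. These 3 were lower in both shRBM39 libraries, with log2 differences of -0.47, -0.27 and -0.40. SP100, a component of nuclear bodies, was at 40.4 and 36.9 TPM in the shRBM39 libraries, against 31.7 and 28.1 TPM in the scramble libraries. ISG20, an RNA exonuclease gene, was at 45.7 and 60.8 TPM in the shRBM39 libraries, against 39.4 and 35.3 TPM in the scramble libraries. Both were higher in the shRBM39 libraries without passing the test, with log2 differences of 0.36 and 0.49. IFI6 was at 7.03 and 3.59 TPM in the shRBM39 libraries, against 7.29 and 7.19 TPM in the scramble libraries, with shRBM39 replicate 2 far below the rest and replicate 1 close to scramble. BST2 (tetherin, which holds budding virus at the membrane) was at 445 and 522 TPM in the shRBM39 libraries, against 490.2 and 477 TPM in the scramble libraries. TRIM25 was at 85.1 and 69.3 TPM in the shRBM39 libraries, against 84.5 and 75.9 TPM in the scramble libraries, and the groups overlapped in both. LY6E was at 3.33 and 0.81 TPM in the shRBM39 libraries, against 1.27 and 1.58 TPM in the scramble libraries, again with overlapping groups. For these 9 members limma gave adjusted p-values from 0.128 (UBE2L6) to 0.985 (BST2).

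Among the transcription factors of the response, the 4 tested members IRF1, IRF7, IRF9 and STAT2 gave 0 calls in the MM1S knockdown at limma adjusted p-values of 0.138 to 0.672, and 1, IRF7, was at an unadjusted p below 0.05. IRF1 was at 111 and 62.2 TPM in the shRBM39 libraries, against 49.0 and 53.0 TPM in the scramble libraries, higher in both shRBM39 libraries but by very different amounts. STAT2 was at 38.9 and 64.5 TPM in the shRBM39 libraries, against 72.8 and 70.5 TPM in the scramble libraries, and shRBM39 replicate 2 was close to scramble. Without that library, both were called, IRF1 higher and STAT2 lower. DTX3L, which shares its promoter region with PARP9, was at 7.53 and 7.23 TPM in the shRBM39 libraries, against 10.2 and 11.5 TPM in the scramble libraries. Its log2 difference was -0.50 (limma adjusted p = 0.111), against -2.58 in PARP9. PARP14, a further gene of that stretch of chromosome 3, was at 11.4 and 15.1 TPM in the shRBM39 libraries, against 17.3 and 15.5 TPM in the scramble libraries. HERC6, the neighbour and paralog of HERC5 on chromosome 4, was at 5.76 and 7.37 TPM in the shRBM39 libraries, against 7.77 and 7.25 TPM in the scramble libraries, with overlapping groups.

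Indisulam in MM1S went with lower levels of 10 members and higher levels of 4 members. Of the 10, 6 were in the mixed group of MX, tetherin and other effector genes, of which 8 were tested. After median scaling ISG20, BST2 and TAP1 of that group lost the call and SAMD9 was called higher. Of 31 members tested, DDX58, SP100, UBE2L6 and TRIM25 rose, and MX1, IFI35, ISG20, TAP1, LY6E, MX2, BST2, HERC5, IFI6 and IRF7 fell. Over all 13445 genes tested, 8.47% rose and 21.5% fell. The median log2 difference of the members was -0.14, against -0.05 over all genes. The groups did not overlap in 5 members that were higher and 13 that were lower with indisulam, where 47.3% of all genes had no overlap in either direction. After scaling every library to the same median, 7 members rose and 7 fell, where 18.7% and 21.8% of all genes did. Without indisulam replicate 3, 13 members rose and 12 fell, where 36.8% and 29% of all genes did, and the members' median was 0.01. Without DMSO replicate 1, 2 or 3, 1 member rose and 3, 4 and 3 fell, and without indisulam replicate 1 or 2, 1 rose and 6 fell in both cases. DDX58 higher and MX1, IFI35 and ISG20 lower were the calls made in each of those 5 fits. Calls over all genes were not counted in those 5 fits, so calls lost by members cannot be told from calls lost over all genes.

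The antiviral GTPase genes and the genes of membrane effectors were lower with indisulam. MX1 was at 4.33, 4.95 and 3.24 TPM in the indisulam libraries, against 13.6, 13.9 and 17.0 TPM in the DMSO libraries, and every indisulam library was far below every DMSO library. Its log2 difference was -1.62 (SE 0.192, limma adjusted p = 0.00123). MX2, on the same stretch of chromosome 21, was at 1.24, 1.47 and 0.69 TPM in the indisulam libraries, against 2.67, 2.98 and 2.52 TPM in the DMSO libraries (log2 difference -0.82, limma adjusted p = 0.0179). LY6E, which encodes a surface protein that blocks entry of coronaviruses, was at 2.42, 3.93 and 5.02 TPM in the indisulam libraries, against 8.15, 8.93 and 8.17 TPM in the DMSO libraries (log2 difference -1.01, limma adjusted p = 0.0171). The indisulam libraries were spread more widely for LY6E than for MX1 but still did not reach the DMSO values. BST2, the member with the highest TPM in both groups, was at 471, 440.3 and 547 TPM in the indisulam libraries, against 622, 672 and 644 TPM in the DMSO libraries (log2 difference -0.41, limma adjusted p = 0.019). Without indisulam replicate 3 the 4 differences were -1.49, -0.66, -1.20 and -0.50, and all 4 were called.

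IFI35 was at 22.2, 20.7 and 24.7 TPM in the indisulam libraries, against 38.4, 41.6 and 45.2 TPM in the DMSO libraries, with a log2 difference of -0.86 (limma SE 0.124, adjusted p = 0.00253). ISG20 was at 93.6, 96.0 and 109.7 TPM in the indisulam libraries, against 143, 154 and 145 TPM in the DMSO libraries (log2 difference -0.56, limma adjusted p = 0.00458). TAP1, a peptide transporter of antigen presentation, was at 40.5, 40.1 and 39.8 TPM in the indisulam libraries, against 53.7, 52.9 and 55.2 TPM in the DMSO libraries (log2 difference -0.42, limma adjusted p = 0.0135). The 3 indisulam libraries were nearly equal for TAP1, so that replicate 3 did not stand apart there. IFI6, which encodes a small protein of the endoplasmic reticulum and mitochondria, was at 3.28, 2.29 and 3.61 TPM in the indisulam libraries, against 7.58, 4.86 and 6.42 TPM in the DMSO libraries (log2 difference -0.84, limma adjusted p = 0.0269). HERC5 was at 5.69, 5.46 and 5.12 TPM in the indisulam libraries, against 8.65, 8.9 and 8.19 TPM in the DMSO libraries (log2 difference -0.58, limma adjusted p = 0.0258). IRF7 was at 22.1, 22.6 and 20.0 TPM in the indisulam libraries, against 28.0, 29.0 and 30.9 TPM in the DMSO libraries (log2 difference -0.42, limma adjusted p = 0.0329). In these members each indisulam library lay below each DMSO library. Without indisulam replicate 3 the log2 differences were -0.93 for IFI35, -0.63 for ISG20, -0.41 for TAP1, -0.94 for IFI6, -0.54 for HERC5 and -0.37 for IRF7, and all 6 were called. After median scaling IRF7, ISG20, BST2 and TAP1 kept a lower value and lost the call, at limma adjusted p-values of 0.0539, 0.106, 0.265 and 0.0999.

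The members that rose with indisulam included the RIG-I gene and that of a ubiquitin ligase linked to it. DDX58 was at 4.76, 4.72 and 3.14 TPM in the indisulam libraries, against 1.28, 1.21 and 1.06 TPM in the DMSO libraries. All 3 indisulam libraries exceeded the DMSO values, with a log2 difference of 1.24 (limma SE 0.19, adjusted p = 0.00335), or 1.40 without replicate 3. TRIM25, the gene of that ligase, was at 125, 114 and 43.9 TPM in the indisulam libraries, against 38.6, 34.8 and 39.4 TPM in the DMSO libraries. Replicates 1 and 2 were far above the DMSO level and replicate 3 only just above it, and the call was marginal (log2 difference 1.17, SE 0.368, limma adjusted p = 0.04996). Without replicate 3 it was 1.64 (limma adjusted p = 7.61e-06). SP100 was at 31.4, 30.6 and 27.4 TPM in the indisulam libraries, against 21.4, 19.9 and 20.1 TPM in the DMSO libraries (log2 difference 0.52, limma adjusted p = 0.0162). UBE2L6 was at 75.9, 73.7 and 67.1 TPM in the indisulam libraries, against 56.6, 56.3 and 56.4 TPM in the DMSO libraries (log2 difference 0.35, limma adjusted p = 0.0271). Without replicate 3 they were 0.58 and 0.40, and both were called. Neither overlapped with DMSO, and UBE2L6 was not called after median scaling (limma adjusted p = 0.0872).

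Indisulam replicate 3 differed from replicates 1 and 2 mostly in members that were high in those libraries. In 14 tested members both replicates 1 and 2 lay above all DMSO libraries. Replicate 3 was also above them in 5 of these, within their range in IFIH1 and SAMD9, and below it in STAT2, OAS2, OAS3, PARP14, EIF2AK2, ADAR and SAMD9L. In the 13 members where replicates 1 and 2 lay below all DMSO libraries, replicate 3 did too. STAT2 was at 103, 95.7 and 41.4 TPM in the indisulam libraries, against 60.8, 63.8 and 66.2 TPM in the DMSO libraries. OAS2 was at 12.9, 13.3 and 5.44 TPM in the indisulam libraries, against 6.51, 5.9 and 6.75 TPM in the DMSO libraries, and again replicate 3 alone was under DMSO. SAMD9 was at 14.4, 14.6 and 5.59 TPM in the indisulam libraries, against 5.61, 5.07 and 5.74 TPM in the DMSO libraries. ADAR, the gene of the RNA editing enzyme that marks self double-stranded RNA, was at 96.9, 96.1 and 42.3 TPM in the indisulam libraries, against 60.5, 52.2 and 58.8 TPM in the DMSO libraries. These 4 were not called over all 3 replicates, at limma adjusted p-values of 0.632, 0.223, 0.102 and 0.408. Without replicate 3 they were called higher, with log2 differences of 0.64, 0.94, 1.26 and 0.75.

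**Figure D2:**
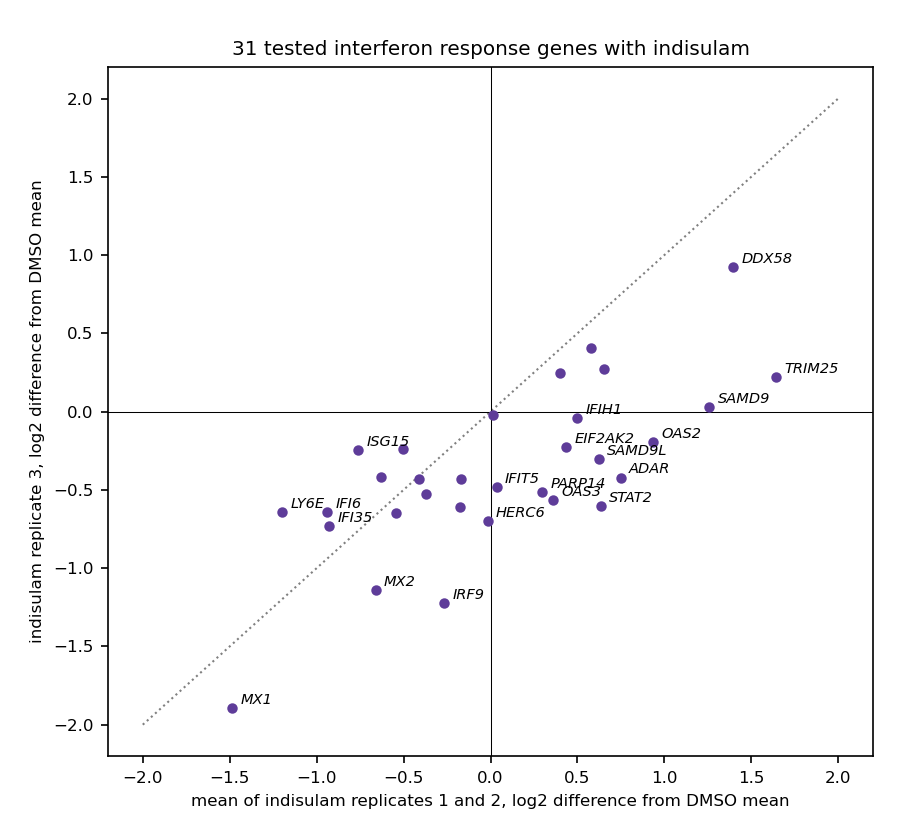
Log2 difference from the DMSO mean on log2(TPM + 1) for the 31 tested members, with the mean of indisulam replicates 1 and 2 on the horizontal axis, replicate 3 on the vertical axis and the dotted line marking equal values. MX1 is the lowest member in both, TRIM25 is the highest in replicates 1 and 2 and DDX58 in replicate 3, while STAT2, ADAR and OAS2 are above 0 in replicates 1 and 2 and below 0 in replicate 3.

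OAS1 was at 30.4, 24.6 and 20.8 TPM in the indisulam libraries, against 15.2, 18.1 and 17.9 TPM in the DMSO libraries, with every indisulam library above DMSO, and just missed the call (log2 difference 0.53, limma adjusted p = 0.055). Without replicate 3 it was called (0.65, limma adjusted p = 0.00202). IFIH1 was at 15.6, 16.7 and 10.8 TPM in the indisulam libraries, against 11.3, 10.1 and 12.0 TPM in the DMSO libraries, with replicate 3 inside the DMSO range, and was called only without that replicate (0.32 with it, 0.50 without it, limma adjusted p = 0.0028). ISG15, the ubiquitin-like modifier itself, was at 9.09, 9.59 and 13.8 TPM in the indisulam libraries, against 15.0, 18.4 and 16.3 TPM in the DMSO libraries, below DMSO in every library, and also just missed the call (limma adjusted p = 0.0567; without replicate 3 0.000483). IRF9 was at 21.4, 18.6 and 9.79 TPM in the indisulam libraries, against 23.6, 25.1 and 23.9 TPM in the DMSO libraries, where the lowest was replicate 3 (limma adjusted p = 0.143). Without that replicate IRF9 was called lower (-0.27, limma adjusted p = 0.0252). PML, the scaffold of nuclear bodies, was at 20.0, 21.7 and 20.3 TPM in the indisulam libraries, against 20.4, 21.2 and 20.3 TPM in the DMSO libraries. The PML values overlapped, unlike those of its partner SP100.

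The other 15 members did not reach 1 TPM in 3 libraries of the indisulam table and were not tested. Several still had groups apart from each other. IFIT3, the gene of a partner of IFIT1, was at 0.05, 0.07 and 0.05 TPM in the indisulam libraries, against 0.24, 0.35 and 0.36 TPM in the DMSO libraries. USP18, the gene of the protease that removes ISG15, was at 0.03, 0.05 and 0.05 TPM in the indisulam libraries, against 0.38, 0.45 and 0.33 TPM in the DMSO libraries. PARP9 was at 0.09, 0.05 and 0.09 TPM in the indisulam libraries, against 0.42, 0.29 and 0.29 TPM in the DMSO libraries. All 3 were far lower with indisulam, from DMSO levels already under 1 TPM. IFI44 was at 0, 0.07 and 0 TPM in the indisulam libraries, against 0.63, 1.07 and 0.53 TPM in the DMSO libraries. TRIM22, the gene of an antiviral ubiquitin ligase, was at 1.17, 1.12 and 0.45 TPM in the indisulam libraries, against 0.02, 0.17 and 0.26 TPM in the DMSO libraries. IFI44 was lower and TRIM22 higher in every indisulam library, at levels where no read count is known. IFI44L and IFIT2 were at or under 0.02 TPM in every library of this table.

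**Figure D3:**
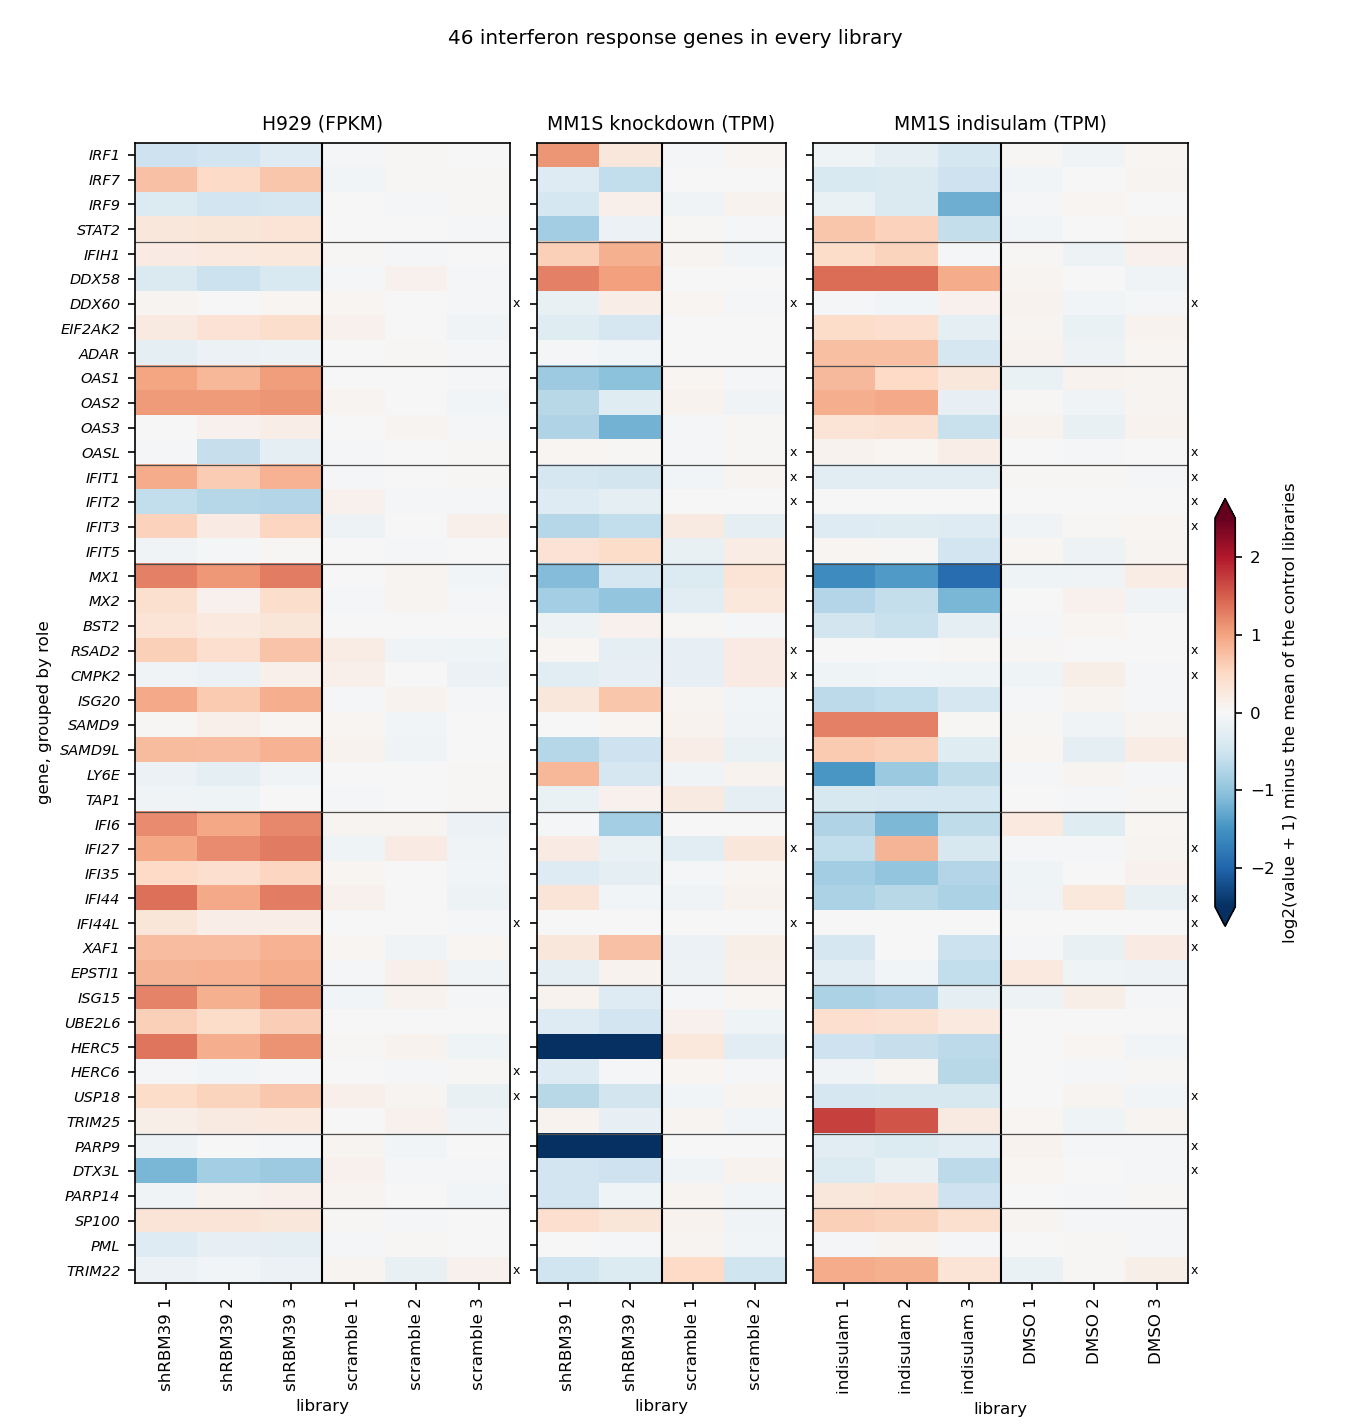
Each member (rows, grouped by role) in each expression library (columns), coloured by log2(value + 1) minus the mean of the control libraries of its own table, with values in FPKM for H929 and TPM for MM1S. A small x to the right of a row marks members that were not tested in that comparison, and PARP9 and HERC5 in the MM1S shRBM39 libraries lie beyond the end of the colour scale.

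In H929, the members were mostly higher in the libraries labelled shRBM39. Of 41 tested at 1 FPKM or more in 3 libraries, 25 were higher and 9 were lower, where 24.1% of all 10360 genes were higher and 48.1% lower. After median scaling the counts were 29 and 5, where 37.1% and 32.9% of all genes were called. Library by library, 25 members lay higher in all libraries labelled shRBM39, 9 lower and 7 overlapped, where 74.7% of all genes had no overlap in either direction. The median log2 difference of the members was 0.31, against -0.134 over all genes, and differences are also given relative to that median, as "relative to all genes". ADAR and LY6E, lower as deposited, were at 0.0027 and 0.03 after median scaling and no longer called, and PML and OASL also lost their call.

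The members higher in the libraries labelled shRBM39 covered most effector classes. MX1 was at 111, 98.6 and 113 FPKM in the libraries labelled shRBM39, against 45.9, 47.9 and 43.6 FPKM in those labelled scramble, a difference of 1.21, or 1.35 relative to all genes (SE 0.0555, limma adjusted p = 9.11e-10). OAS2 was at 46.6, 46.3 and 47.9 FPKM in the libraries labelled shRBM39, against 22.6, 21.8 and 20.6 FPKM in those labelled scramble, a difference of 1.08, or 1.22 relative to all genes (SE 0.0486, limma adjusted p = 7.67e-10). For both genes the groups were far apart compared with the spread within each. OAS1 was at 31.1, 28.2 and 32.6 FPKM in the libraries labelled shRBM39, against 15.4, 15.5 and 15.0 FPKM in those labelled scramble (log2 difference 0.95, or 1.09 relative to all genes; limma adjusted p = 1.06e-08). OAS3 was at 8.64, 9.29 and 9.76 FPKM in the libraries labelled shRBM39, against 8.52, 9.02 and 8.23 FPKM in those labelled scramble, not called as deposited and called higher after median scaling, at 0.26. OASL, a synthetase-like gene without that enzyme activity in humans, was at 11.6, 7.71 and 10.0 FPKM in the libraries labelled shRBM39, against 11.7, 12.2 and 12.3 FPKM in those labelled scramble, called lower (limma adjusted p = 0.0234), but not without shRBM39 replicate 2, scramble replicate 2 or scramble replicate 3. OASL was thus the only one of these 4 genes called lower, and after median scaling it was not called (-0.13, limma adjusted p = 0.322).

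Of the members in the ISG15 system, the 4 tested were higher in the libraries labelled shRBM39. ISG15 was at 115, 89.5 and 106 FPKM in the libraries labelled shRBM39, against 45.7, 51.2 and 47.4 FPKM in those labelled scramble (log2 difference 1.08, or 1.22 relative to all genes; limma adjusted p = 9.96e-08). UBE2L6 was at 68.1, 61.7 and 68.7 FPKM in the libraries labelled shRBM39, against 44.9, 44.0 and 44.8 FPKM in those labelled scramble (0.56, or 0.69 relative to all genes). HERC5 was at 6.27, 4.37 and 5.29 FPKM in the libraries labelled shRBM39, against 1.92, 2.04 and 1.67 FPKM in those labelled scramble (1.12, or 1.26 relative to all genes; limma adjusted p = 3.95e-07). None of these 3 overlapped between groups. TRIM25 differed least, at 39.4, 41.8 and 42.7 FPKM in the libraries labelled shRBM39, against 35.2, 38.5 and 33.6 FPKM in those labelled scramble (0.20, or 0.34 relative to all genes; limma adjusted p = 0.00479). USP18 was at 0.941, 1.06 and 1.27 FPKM in the libraries labelled shRBM39, against 0.533, 0.473 and 0.246 FPKM in those labelled scramble, under the minimum in too many libraries to be tested. HERC6 was not tested either, at 0.0242, 0.00621 and 0.0129 FPKM in the libraries labelled shRBM39, against 0.0554, 0.0378 and 0.0711 FPKM in those labelled scramble. UBA7, the gene of the ISG15-activating enzyme and not a member, was at 2.77, 2.59 and 3.43 FPKM in the libraries labelled shRBM39, against 2.76, 2.88 and 3.1 FPKM in those labelled scramble, with overlapping groups (limma adjusted p = 0.99).

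All 6 tested members among the IFI genes, XAF1 and EPSTI1 were higher. IFI6 was at 148, 128 and 150.2 FPKM in the libraries labelled shRBM39, against 68.4, 68.6 and 58.6 FPKM in those labelled scramble (1.11, or 1.25 relative to all genes; limma adjusted p = 1.71e-08). XAF1, a pro-apoptotic partner of XIAP, was at 8.37, 8.44 and 9.13 FPKM in the libraries labelled shRBM39, against 4.68, 4.22 and 4.68 FPKM in those labelled scramble (0.80, or 0.94 relative to all genes; limma adjusted p = 1.56e-07). EPSTI1 was at 2.71, 2.72 and 2.9 FPKM in the libraries labelled shRBM39, against 1.01, 1.23 and 0.92 FPKM in those labelled scramble (0.88, or 1.02 relative to all genes; limma adjusted p = 2.68e-07). In these 3 every library labelled shRBM39 exceeded every one labelled scramble. IFI35 was at 70.7, 66.9 and 72.9 FPKM in the libraries labelled shRBM39, against 51.7, 49.9 and 47.5 FPKM in those labelled scramble (0.49, or 0.62 relative to all genes). IFI44, at 2.15, 1.34 and 1.98 FPKM in the libraries labelled shRBM39, against 0.324, 0.234 and 0.115 FPKM in those labelled scramble, had the largest ratio of means of the members tested, 8.14, from a scramble level under 1 FPKM. IFI27 was at 106 ± 12.5 FPKM in the libraries labelled shRBM39 and 47.3 ± 6.21 FPKM in those labelled scramble (SD, n = 3 each).

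Of the other effectors, ISG20 was at 15.2, 12.2 and 14.8 FPKM in the libraries labelled shRBM39, against 7.13, 7.89 and 7.16 FPKM in those labelled scramble (0.84, or 0.97 relative to all genes; limma adjusted p = 5.21e-07). SAMD9L, a translation inhibitor, was at 9.8, 9.7 and 10.5 FPKM in the libraries labelled shRBM39, against 5.65, 4.86 and 5.24 FPKM in those labelled scramble (0.81, or 0.95 relative to all genes; limma adjusted p = 1.56e-07). Its neighbour and paralog SAMD9 on chromosome 7 was at 14.3, 15.4 and 14.5 FPKM in the libraries labelled shRBM39, against 14.7, 13.4 and 14.2 FPKM in those labelled scramble, with overlapping groups. MX2 was at 18.7, 15.2 and 19.4 FPKM in the libraries labelled shRBM39, against 13.8, 14.8 and 13.4 FPKM in those labelled scramble (0.32, or 0.45 relative to all genes; limma adjusted p = 0.00288). BST2 was at 314, 295 and 308 FPKM in the libraries labelled shRBM39, against 250.1, 247 and 247 FPKM in those labelled scramble (0.30, or 0.43 relative to all genes; limma adjusted p = 1.33e-05). Both were higher by far less than MX1. LY6E was at 280.4, 269 and 296 FPKM in the libraries labelled shRBM39, against 310.2, 309 and 319 FPKM in those labelled scramble, where the difference of -0.15 vanished against all genes (-0.02). TAP1 was at 87.2 ± 4.01 FPKM in the libraries labelled shRBM39 and 90.9 ± 1.64 FPKM in those labelled scramble (SD, n = 3 each) and was not called as deposited.

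The transcription factors were split in H929. IRF7 was higher, at 32.8, 27.6 and 32.0 FPKM in the libraries labelled shRBM39, against 18.6, 19.9 and 19.7 FPKM in those labelled scramble (0.64, or 0.77 relative to all genes; limma adjusted p = 1.16e-06). IRF9 was lower, at 60.6, 55.0 and 57.5 FPKM in the libraries labelled shRBM39, against 76.3, 75.7 and 78.3 FPKM in those labelled scramble (-0.41, or -0.27 relative to all genes; limma adjusted p = 2.96e-06). IRF1, which also answers to interferon gamma, was lower as well, at 38.5, 39.6 and 43.9 FPKM in the libraries labelled shRBM39, against 53.7, 56.3 and 56.1 FPKM in those labelled scramble (-0.44, or -0.30 relative to all genes; limma adjusted p = 6.02e-06). The groups did not overlap in any of these. STAT2 was higher, at 39.7 ± 0.73 FPKM in the libraries labelled shRBM39 and 31.8 ± 0.624 FPKM in those labelled scramble (SD, n = 3 each).

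The RNA sensors were split too. DDX58 was lower, at 2.17, 1.8 and 2.11 FPKM in the libraries labelled shRBM39, against 2.93, 3.39 and 2.91 FPKM in those labelled scramble (-0.43, or -0.30 relative to all genes; limma adjusted p = 0.00023). IFIH1 was higher, at 9.14, 9.38 and 9.54 FPKM in the libraries labelled shRBM39, against 7.94, 7.58 and 7.73 FPKM in those labelled scramble (0.24, or 0.38 relative to all genes; limma adjusted p = 0.0018). EIF2AK2, the gene of the kinase PKR, was higher too, at 9.3 ± 0.774 FPKM in the libraries labelled shRBM39 and 7.12 ± 0.54 FPKM in those labelled scramble (SD, n = 3 each). ADAR was at 237, 252 and 256 FPKM in the libraries labelled shRBM39, against 279.8, 287 and 276 FPKM in those labelled scramble, a difference of -0.18 that was -0.04 relative to all genes. The nuclear body gene SP100 was higher, at 9.48, 9.53 and 9.25 FPKM in the libraries labelled shRBM39, against 7.59, 7.29 and 7.4 FPKM in those labelled scramble (0.31, or 0.44 relative to all genes; limma adjusted p = 0.000271). Its partner PML was lower, at 11.9, 13.0 and 12.8 FPKM in the libraries labelled shRBM39, against 14.8, 15.6 and 15.3 FPKM in those labelled scramble (-0.26, or -0.12 relative to all genes; limma adjusted p = 0.000975).

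On the log2(FPKM + 1) scale DTX3L had the largest difference among the members lower in H929, at 1.58, 2.17 and 2.05 FPKM in the libraries labelled shRBM39, against 5.14, 4.49 and 4.47 FPKM in those labelled scramble (-0.96, or -0.83 relative to all genes; SE 0.0867, limma adjusted p = 4.08e-07). PARP9, whose promoter it shares, was at 0.903, 1.08 and 1.03 FPKM in the libraries labelled shRBM39, against 1.18, 0.98 and 1.12 FPKM in those labelled scramble, with overlapping groups. IFIT2 was lower, by 2.9-fold in the ratio of means against 2.44-fold for DTX3L, at 0.543, 0.444 and 0.422 FPKM in the libraries labelled shRBM39, against 1.54, 1.27 and 1.28 FPKM in those labelled scramble (-0.68, or -0.55 relative to all genes; limma adjusted p = 3.19e-06). It was near the minimum and entered the test only through the scramble libraries, where it was high. Its neighbours IFIT1 and IFIT3 on chromosome 10 were higher, with log2 differences of 0.81 and 0.44. IFIT5, the remaining gene of that cluster, was not called (-0.03). In all, 20 members lie in 8 groups of neighbouring genes, and paralogs in these groups can share reads, so the split between them is uncertain.

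Some markers listed for other cell types differed between the H929 groups. The 4 T cell markers summed to 15.7 to 18.5 FPKM in the libraries labelled shRBM39 and 39.3 to 47.1 FPKM in those labelled scramble, nearly all of it CD3E. CD3D was at 0 in every library labelled shRBM39 and only at 0.0352, 0.032 and 0.0723 FPKM in those labelled scramble. The 5 macrophage markers summed to 13.4 to 14.7 FPKM in the libraries labelled shRBM39 and 25.1 to 26.9 FPKM in those labelled scramble, nearly all of it CD68. The T cell marker CD2 and the macrophage marker LYZ went the other way at low levels. They averaged 0.243 and 0.0832 FPKM with the shRBM39 label, against 0.174 and 0 FPKM with the scramble label. Of 4 markers of plasmacytoid dendritic cells, the main interferon producers, 2 were listed, and summed to 5.58 to 9.51 FPKM in the libraries labelled shRBM39 and 30.8 to 50.3 FPKM in those labelled scramble, nearly all of it GZMB. LILRA4 was at 0 in every library labelled shRBM39 and at 0.0148, 0 and 0 FPKM in those labelled scramble. The plasma cell markers summed to 7750 to 7877 FPKM in the libraries labelled shRBM39 and 4798 to 4936 FPKM in those labelled scramble. JCHAIN was the largest part, at a mean of 3952 against 2377 FPKM. PRDM1 and CD38 were called lower with the shRBM39 label, at means of 50.5 against 65.8 FPKM and 5.77 against 7.45 FPKM, and the other plasma cell markers were called higher. The 5 listed of 6 B cell markers summed to 64.2 to 67.7 FPKM in the libraries labelled shRBM39 and 58.4 to 61.8 FPKM in those labelled scramble. In the MM1S tables CD3D, CLEC4C, LILRA4 and GZMB were listed at 0 in every library. The remaining marker of plasmacytoid dendritic cells, IL3RA, was at 2.9 and 0.71 TPM with shRBM39, against 0.26 and 0.09 TPM with scramble. It was at 0.11, 0.08 and 0 TPM with indisulam, against 0, 0.21 and 0.04 TPM with DMSO. In MM1S the T cell sums were 1.15 to 1.74 TPM with shRBM39 and 4.68 to 5.77 TPM with scramble, and 0.99 to 1.53 TPM with indisulam and 3.1 to 4.29 TPM with DMSO. The macrophage sums were 5.72 to 9.82 TPM with shRBM39 and 16.1 to 21.1 TPM with scramble, and 7.22 to 8.33 TPM with indisulam and 9.5 to 10.57 TPM with DMSO. The plasma cell sums were 7291 to 8451 TPM with shRBM39 and 4448 to 6703 TPM with scramble, and 5667 to 6773 TPM with indisulam and 7225 to 7574 TPM with DMSO. The part of these markers in the results was not tested, and bulk RNA does not show which cells carried them.

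**Figure D4:**
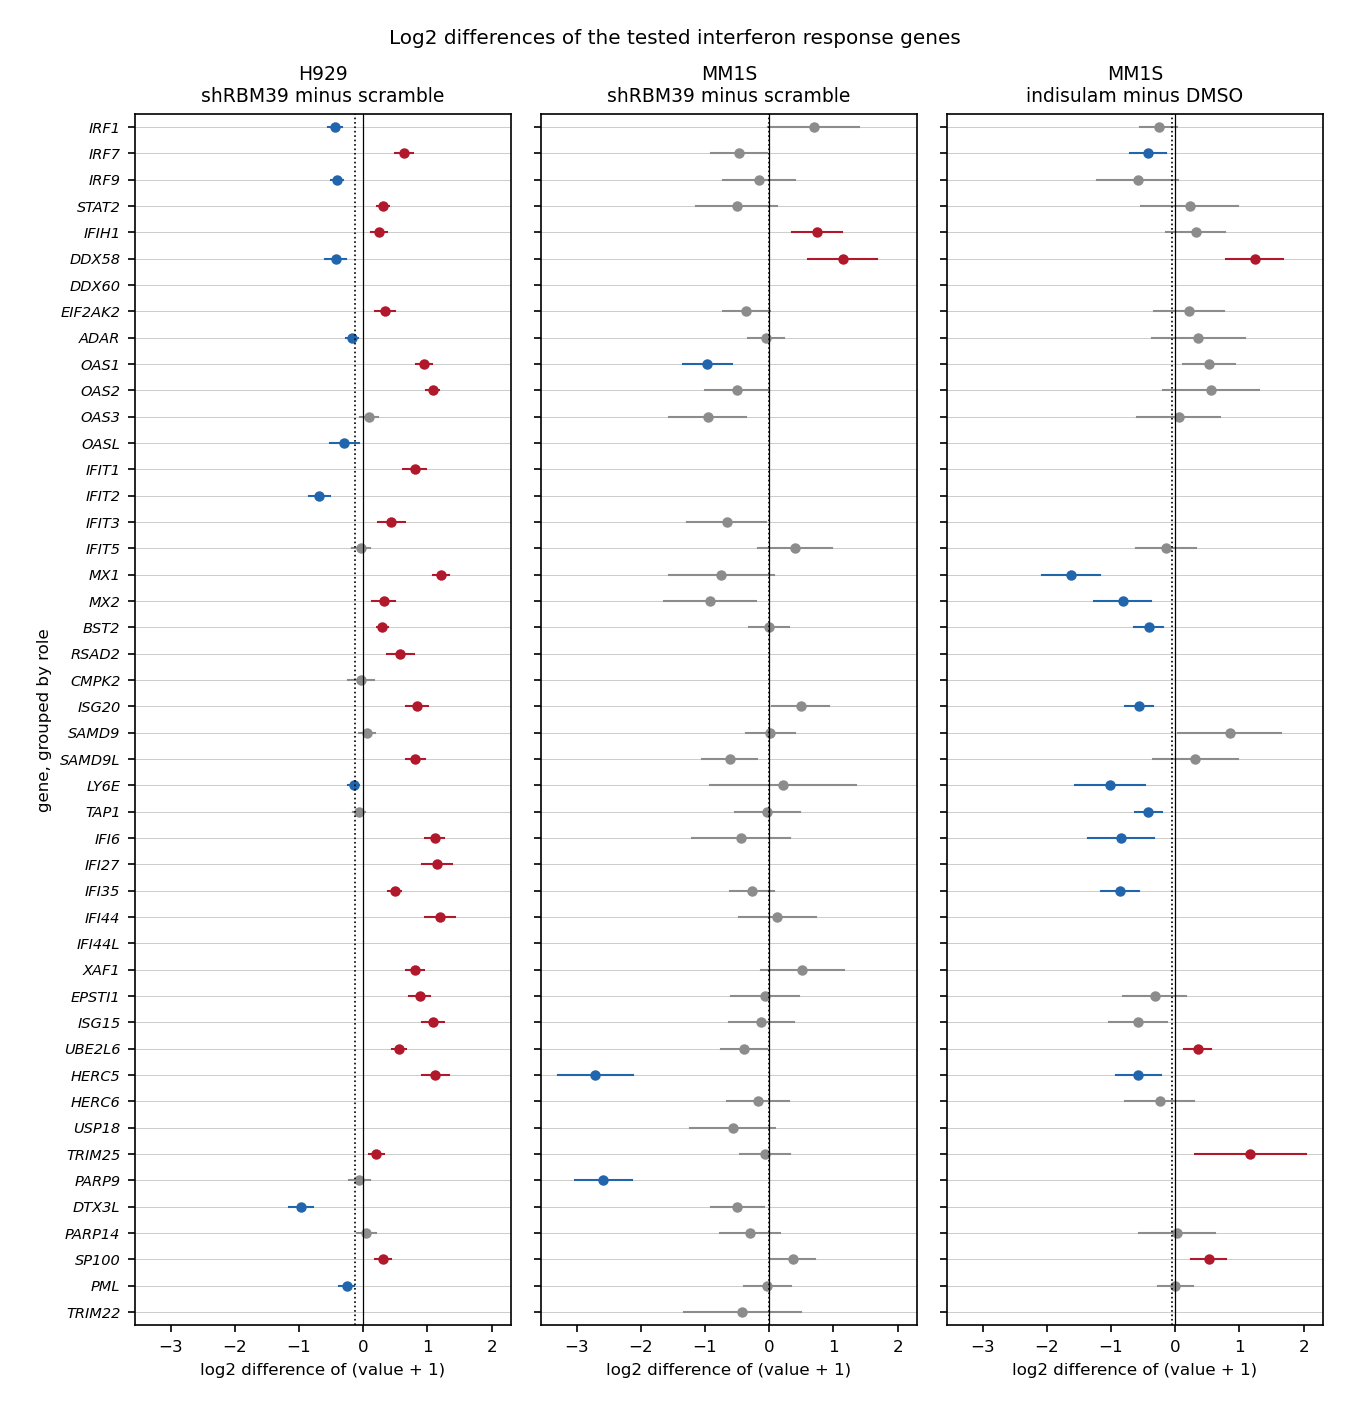
Log2 difference on log2(value + 1) with its confidence interval from limma for every tested member in the 3 comparisons, with red for called higher, blue for called lower, grey for not called and blank rows for not tested; dotted lines mark the median of all genes. HERC5 lies at 1.12 in H929 and at -2.71 and -0.58 in MM1S, and DDX58 at -0.43 in H929 and at 1.15 and 1.24 in MM1S.

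Set side by side, 30 members were tested in all 3 comparisons and 15 were called in at least 2. The same count over all genes was not made, so 15 is not read as particular to the members. Of all genes, 24.1% were called higher and 48.1% lower in H929. In the MM1S knockdown the shares were 3.97% and 6.35%, and with indisulam 8.47% and 21.5%. The members called in all 3 were HERC5 and DDX58. HERC5 was higher in H929 and lower in both MM1S comparisons, and DDX58 lower in H929 and higher in both MM1S comparisons. OAS1 was called in opposite directions by the knockdown label, higher in H929 and lower in MM1S. IRF7, MX1, MX2, IFI6, IFI35, ISG20 and BST2 were higher in H929 and fell with indisulam, without a call in the MM1S knockdown. SP100, TRIM25 and UBE2L6 were higher in H929 and rose with indisulam. IFIH1 was higher in H929 and rose in the MM1S knockdown, and LY6E was lower in H929 as deposited and fell with indisulam. The difference between comparisons was itself not tested, and each table was normalized on its own. No call in any comparison was made for 8 tested members, among them OAS3, IFIT5, PARP14 and SAMD9, and IFI44L and DDX60 were tested in none.

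Mean levels of some members are set side by side for the MM1S tables, each on its own scale. PARP9 averaged 1.68 against 15.0 TPM with shRBM39 and scramble and 0.0767 against 0.333 TPM with indisulam and DMSO. DTX3L averaged 7.38 against 10.8 TPM and 0.537 against 0.993 TPM in the same order, HERC5 3.19 against 26.8 TPM and 5.42 against 8.58 TPM, and ISG20 53.2 against 37.3 TPM and 99.8 against 147 TPM. LY6E was among the highest members in H929, at 282 against 313 FPKM with shRBM39 and scramble labels. In MM1S it averaged 2.07 against 1.43 TPM with shRBM39 and scramble and 3.79 against 8.42 TPM with indisulam and DMSO. BST2 had the highest mean TPM of the members in all 4 MM1S expression groups.

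The rest of the interferon pathway was read from a list of 65 ligand, receptor, signalling, sensor, restraint and interferon gamma target genes outside the members. None of the 6 interferon ligand genes reached the minimum in either MM1S table, and in H929, where IFNB1 and IFNG were the ones listed, neither did. IFNB1 was at 0.63, 0.49 and 0.31 TPM in the indisulam libraries, against 0.08, 0 and 0 TPM in the DMSO libraries, and at 0 and 0.11 TPM in the shRBM39 libraries and 0 in both scramble libraries. In the MM1S knockdown 4 of 53 tested genes rose and 4 fell by limma, where 3.97% and 6.35% of all genes did. Without shRBM39 replicate 1 the counts were 6 and 9. Without scramble replicate 1 both were 0, with 6 and 7 genes at an unadjusted p below 0.05, and without scramble replicate 2 both were 0, with 4 and 11. SOCS3, a feedback inhibitor of JAK-STAT signalling, was at 0.59 and 0.21 TPM in the shRBM39 libraries, against 31.6 and 25.8 TPM in the scramble libraries (log2 difference -4.41, limma adjusted p = 0.0116). In the separately normalized indisulam comparison SOCS3 was under the minimum. It was at 0.11, 0.12 and 0.16 TPM in the DMSO libraries, far under the scramble level, and at 0.04, 0.19 and 0.04 TPM with indisulam. In the knockdown RNASEH2A and RNASEH2B, subunits of the RNase H2 that clears RNA-DNA hybrids, also fell, as did the DNA sensor gene AIM2. Their log2 differences were -1.45, -0.90 and -0.98. The receptor gene IFNAR1 rose, at 128 and 161 TPM in the shRBM39 libraries, against 82.1 and 76.0 TPM in the scramble libraries (limma adjusted p = 0.0359), as did IRF5, GBP4 and ZBP1, with log2 differences of 1.13, 1.44 and 0.98. The receptor gene IFNAR2 went the other way without a call, at 33.1 and 28.2 TPM with shRBM39, against 45.8 and 48.3 TPM with scramble (limma adjusted p = 0.0545). With indisulam IFNAR2 was called lower (log2 difference -1.11, limma adjusted p = 0.00486), and in H929 as labelled it was called higher (0.41). IFNAR1 was called in neither.

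With indisulam 3 of 50 tested pathway genes rose and 11 fell by limma, where 8.47% and 21.5% of all genes did, so these shares were near those of all genes. RNASEH2A was at 7.11, 7.12 and 5.58 TPM in the indisulam libraries, against 34.7, 28.8 and 35.5 TPM in the DMSO libraries (log2 difference -2.16, limma adjusted p = 0.000223). The immunoproteasome genes PSMB8 and PSMB9 and the activator genes PSME1 and PSME2, all induced by interferon gamma, fell, as did TAP1. Their log2 differences were -0.88, -0.86, -0.78 and -1.23 for the first 4 genes. Of the 11 interferon gamma targets tested from the list, these 4 fell, 1, CXCL10, rose and 6 were not called. PSMB9, which lies beside TAP1, was at 34.4, 37.8 and 36.7 TPM in the indisulam libraries, against 65.4, 68.2 and 66.7 TPM in the DMSO libraries (limma adjusted p = 0.000845). SAMHD1, which degrades deoxynucleotides, the chemokine gene CXCL10 and PIAS1 rose, with log2 differences of 0.70, 0.62 and 0.72. Without indisulam replicate 3 these 8 genes were also called, at -2.06 for RNASEH2A, -0.90, -0.87, -0.86 and -1.31 for the immunoproteasome and activator genes, and 0.85, 0.69 and 0.94 for the 3 that rose. After median scaling 13 rose and 13 fell, where 18.7% and 21.8% of all genes did, and without indisulam replicate 3, 22 rose and 15 fell, where 36.8% and 29% did. Without indisulam replicate 1 or 2, 1 rose. Without any one DMSO library 0 rose by limma, with 3 at an unadjusted p below 0.05, while 9 to 10 fell.

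In H929, 17 of 46 tested pathway genes were higher and 22 were lower in the libraries labelled shRBM39, where 24.1% and 48.1% of all genes were. After median scaling the counts were 23 and 20, where 37.1% and 32.9% of all genes were called. The phosphatase gene PTPN6, the receptor chain gene IL10RB, PSME1 and the plasma cell factor IRF4 were higher, with log2 differences of 1.05, 1.08, 0.66 and 0.66. TICAM1, an adaptor of toll-like receptors, was at 11.7, 11.9 and 11.9 FPKM in the libraries labelled shRBM39, against 26.3, 26.0 and 26.4 FPKM in those labelled scramble (-1.08, limma adjusted p = 7.3e-10). SAMHD1, WARS1, STING1 and AIM2 were lower as well, with log2 differences of -1.26, -0.83, -0.80 and -1.45. SAMHD1 was thus lower in H929 and rose with indisulam in MM1S, and RNASEH2A, at 0.58 in H929, was higher there and fell in both MM1S comparisons.

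RIP compares RNA bound with the RBM39 antibody to RNA recovered with IgG, with 1 library each, so the differences have no replicate check and no test. Of the 46 members, 30 were at 1 FPKM or more in either library. Of these, 9 were at least 2-fold higher in the RBM39 RIP and 8 at least 2-fold lower, on (FPKM + 1), where 22.7% and 23.9% of all 10966 genes were. The members' median log2 ratio was 0.33, against 0.02 over all genes. RBM39's own transcript was at 62.1 FPKM in the RBM39 RIP and 126.5 FPKM in IgG.

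HERC6 was at 2.79 FPKM in the RBM39 RIP and listed at 0 in IgG. USP18 was at 1.91 FPKM in the RBM39 RIP and also listed at 0 in IgG, as was IFI6. SAMD9L was at 42.5 FPKM in the RBM39 RIP and 12.3 FPKM in IgG, a log2 ratio of 1.71. PML was at 25.8 FPKM in the RBM39 RIP and 8.42 FPKM in IgG (1.51), also higher by over 2-fold. TAP1 was at 64.8 FPKM in the RBM39 RIP and 23.7 FPKM in IgG (1.41). IFIH1 was at 11.6 FPKM in the RBM39 RIP and 4.18 FPKM in IgG (1.29). IFI6, TRIM25 and ADAR were also at least 2-fold higher. At the other end, EIF2AK2 was at 5.67 FPKM in the RBM39 RIP and 36.0 FPKM in IgG (-2.47). OAS2 was at 2.87 FPKM in the RBM39 RIP and 16.6 FPKM in IgG (-2.19). Both were several-fold lower with the RBM39 antibody. EPSTI1 was at 3.17 FPKM in the RBM39 RIP and 17.4 FPKM in IgG (-2.14). SP100 was at 4.62 FPKM in the RBM39 RIP and 20.7 FPKM in IgG (-1.95). OAS1, STAT2, LY6E and ISG20 were also at least 2-fold lower.

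**Figure D5:**
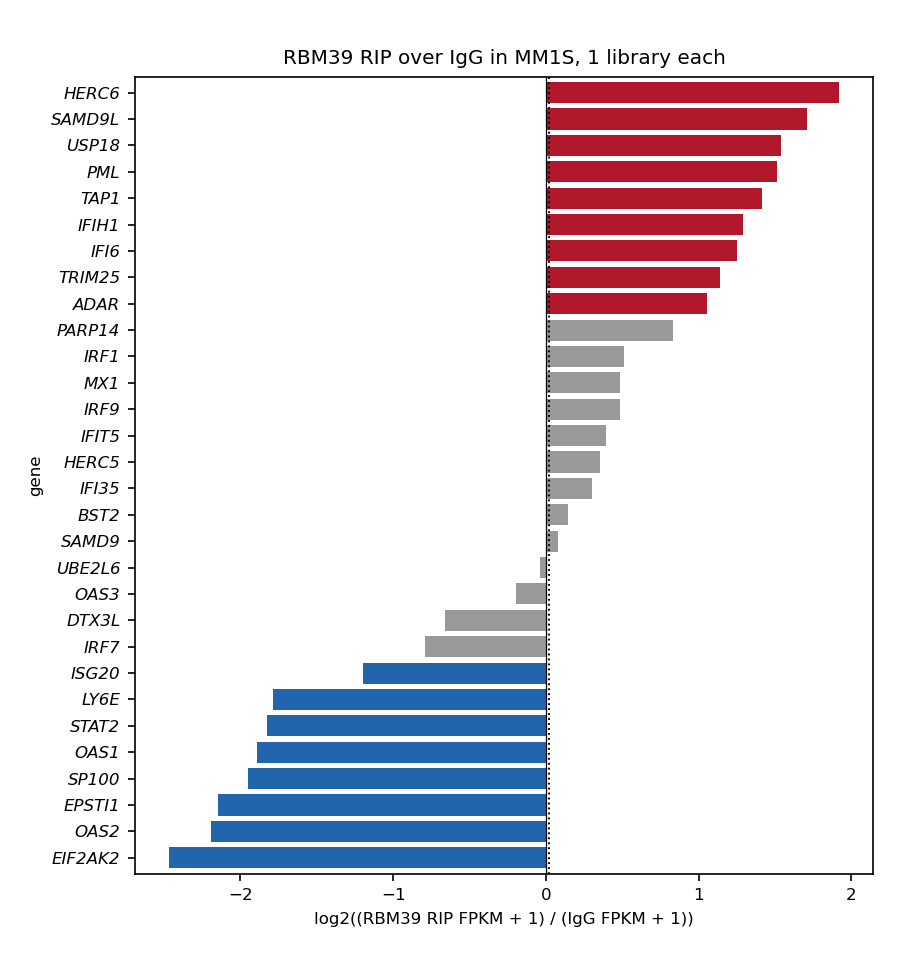
Log2 ratio of (FPKM + 1) in the RBM39 RIP over IgG for the 30 members at 1 FPKM or more in either library, with red and blue for ratios of at least 2-fold higher and lower, grey for those between and the dotted line for the median of all genes. HERC6, listed at 0 in IgG, stands at the top and EIF2AK2 at the bottom.

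Of the members called in both MM1S expression comparisons, HERC5 was at 8.86 FPKM in the RBM39 RIP and 6.71 FPKM in IgG, a log2 ratio of 0.36, and DDX58 was under 1 FPKM in both RIP libraries. PARP9, called in the MM1S knockdown and not tested with indisulam, was also under 1 FPKM in both. Among paralogs the ratios differed in size: SAMD9L stood at 1.71 and SAMD9 at 0.08, and OAS1 and OAS2 at -1.89 and -2.19 with OAS3 at -0.20. The nuclear body genes PML and SP100 lay on opposite sides, at 1.51 and -1.95.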

How the data were processed

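Per the labels' protocols, TRIzol served for RNA extraction and a SMARTER mRNA kit for the libraries. The authors deposited FPKM values per gene for H929 and for the RIP. The authors deposited TPM values per gene for both MM1S tables, recognised from column totals near 1000000. The aligner and annotation were "not given in the sources used here", and the submitters' processing notes list mouse genome builds for these human cells. FPKM had been assumed for every table, and the same test was used for TPM. Rows without a gene name were left out: 834 rows with 0.436 to 0.459% of the total in the MM1S knockdown table and 473 rows with 0.174 to 0.237% in the indisulam table. Rows that repeat a symbol, 1533 in each MM1S table and none for a member, were kept as separate rows.

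Values were tested as log2(value + 1) in R 4.3.3 with limma 3.58.1, using its trend and robust options, two-sided, each comparison in its own table with its own groups only. A gene needed a value of at least 1 in at least the number of libraries of its smaller group. A gene could thus enter through the group where it was high alone. Among others, IFIT2, IFI44 and AIM2 did so in H929, MX2 and SOCS3 in the MM1S knockdown and CXCL10 with indisulam. Benjamini-Hochberg adjustment ran over all genes of the table, with a threshold of 0.05. The RIP ratio was log2 of (RBM39 + 1) over (IgG + 1) for genes at 1 FPKM in either library, read at 2-fold. Tables were summarised with Python 3.11.15, NumPy 2.4.6 and pandas 2.3.3 and drawn with matplotlib 3.10.9. The fits were checked on simulated data with known changes. Alternatives changed the pseudocount to 0.1, dropped the filter or raised it to 5, scaled libraries to 1 median, switched off trend and robust, added a replicate block, required an absolute log2 difference of 1, or left out each library in turn.

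The members, the pathway list, the markers and the alternatives were chosen with earlier results of these data known. Per-library values were given for up to 10 members called in each direction of a comparison, by adjusted p, and for each member called in 2 or more comparisons. Of the pathway genes up to 5 called per direction were named, except 1 that is not reported here, and of the RIP the 6 highest and 4 lowest members. Other members, and IFNB1, DHX58 and IFNAR2, were named after their values were seen. Promoters came from RefSeq on GRCh38.p14. Replicate numbers did not pair the samples.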

Additional observations from a re-analysis of the deposited data

Results flagged for a closer look

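The members called in opposite directions by the shRBM39 label in the 2 lines, with no overlap between groups in either, were OAS1, DDX58 and HERC5. OAS1 had a log2 difference of 0.95 in H929 and -0.96 in MM1S. DDX58 had -0.43 in H929 and 1.15 in MM1S, and HERC5 had 1.12 in H929 and -2.71 in MM1S. The difference between the lines was not tested, and each table was normalized on its own. RBM39 itself was higher in the H929 libraries labelled shRBM39 and lower in the MM1S shRBM39 libraries.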

How the results depend on the processing

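With 2 or 3 libraries per group, no read counts and 1 RIP library each, precision is limited, and causes of the changes below were not tested. Calls over all genes were counted as deposited, after median scaling in H929 and with indisulam, and without indisulam replicate 3. For the other alternatives they were not. There, calls lost by members or pathway genes cannot be told from calls lost over all genes. In H929, median scaling left 5 members lower, and requiring an absolute log2 difference of 1 left 7 higher and 0 lower. Leaving out 1 library gave 25 higher and 8 to 9 lower. In the MM1S knockdown, 2 members higher and 3 lower became 0 and 0 with no filter (limma, with 3 and 11 at an unadjusted p below 0.05). The count of higher members was 1 with a filter at 5, 1 without trend and robust and 1 at an absolute log2 difference of 1. Leaving out 1 library gave 0 to 2 higher and 0 to 4 lower. With indisulam, 4 members higher became 2 with no filter, 7 with median scaling, 2 without trend and robust and 2 at an absolute log2 difference of 1, which left 2 lower in place of 10. Leaving out 1 library gave 1 to 13 higher and 3 to 12 lower. Same-numbered samples correlated at 0.129, 0 and 0.025 in H929 and 0.137, -0.148 and -0.025 with indisulam, where not every pair was over 0.1, so the numbers were not taken to pair the samples. With 2 libraries per group the MM1S knockdown pairs mirror each other and give 1 value, -0.142, or 0.142 crossed, which decides nothing on pairing. With the replicate block, 25 members were higher and 9 lower in H929, 0 and 2 in the MM1S knockdown (2 and 7 at an unadjusted p below 0.05 in limma), and 2 and 7 with indisulam. The crossed replicate block, chosen after seeing the data, gave 0 and 2 in the MM1S knockdown (4 and 10 at an unadjusted p below 0.05 in limma). Among 681 alternatives for named members, 578 kept direction and side of the threshold, 91 lost the call, 4 gained it and 8 turned direction, all 8 where the value was small or the groups overlapped. These were ADAR at 0.0027 and LY6E at 0.030 in H929 with median scaling. In the MM1S knockdown they were BST2 at 0.041 with median scaling, and, over the fits without 1 library, BST2 at -0.12 to 0.11, LY6E at -0.42 to 0.84 and TRIM25 at -0.21 to 0.086. The turned values came without shRBM39 replicate 1 (BST2 and LY6E), without shRBM39 replicate 2 (TRIM25) and without scramble replicate 1 (BST2 and TRIM25). The RIP counts moved by less than 1.5 times under every alternative run, and the members' median log2 ratio was 0.15 with a floor of 5 FPKM.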
